A study of Homo sapiens with 18 samples.

Results

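Libraries labelled SRSF2-OE were compared with libraries labelled TRA2B-OE, which are 6 of the 18 samples of the series, 3 in each group. The members were chosen by their labels alone. MCF-10A is a non-transformed line of human mammary epithelial cells that forms hollow, acinus-like structures when embedded in basement-membrane gel. All 6 samples came from MCF-10A cells that carried a stable retroviral insert and were kept as 3D structures in Matrigel until day 8. By the labels, the insert held the coding sequence of SRSF2 in SRSF2-OE and that of TRA2B in TRA2B-OE, and neither group is a control. The library labelled SRSF2-OE replicate 1 held less SRSF2 than both TRA2B-OE libraries, as described below. Whether its cells carried the insert named by its label was not tested, so directions drawn from that library rest on its label alone. The other 12 samples are labelled Control (empty vector), SRSF4-OE, SRSF6-OE and SRSF9-OE. In the fits they served to estimate the spread between libraries and the difference between label styles. They also frame the description of levels, of closeness and of chromosomes below. By library ID and barcode, replicates 1 and 2 of TRA2B-OE are lanes of a single library, so their counts were summed, and the comparison is between 3 SRSF2-OE libraries and 2 TRA2B-OE libraries out of 14 libraries. No label says that replicates came from separate infections, clones or cultures, so the p-values measure only the spread between these libraries.

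SRSF2 and TRA2B both carry an RNA recognition motif and a domain rich in arginine-serine dipeptides, and both bind exonic enhancer sequences in pre-mRNA to promote the use of nearby splice sites. SRSF2 is one of the classical SR proteins and also acts in transcription elongation. TRA2B is an SR-like protein, the human counterpart of the fly sex-determination factor Transformer-2, and favours purine-rich, GAA-containing enhancers. Both genes hold ultraconserved regions whose splicing sends the transcript to nonsense-mediated decay, which limits the level of the protein.

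The 5 libraries held 44064768 to 92111707 counts. Mitochondrially encoded genes took 16.4%, 8.31% and 11% of the counts in SRSF2-OE replicates 1, 2 and 3, and 9.18% and 14.3% in the TRA2B-OE libraries of replicates 1-2 and of replicate 3. The 16 markers of mammary epithelium summed to between 36849 and 43606 CPM (counts of a gene scaled to the depth of its library) in SRSF2-OE and to 23978 and 34731 CPM in TRA2B-OE. Among them the basal keratins were abundant, whereas EPCAM lay between 0.540 and 3.45 CPM and KRT19 between 0.0591 and 0.183 CPM. The markers of the other cell types were low or did not separate the groups. The fibroblast list summed to 296 to 433 CPM in SRSF2-OE and to 179.7 and 410.04 CPM in TRA2B-OE, nearly all of it from 2 of its 8 genes, COL1A1 and DCN, while COL1A2, COL3A1 and THY1 stayed under 0.05 CPM. The immune, endothelial and adipocyte lists reached at most 6.74, 12.4 and 3.04 CPM, and ADIPOQ and LEP, of the adipocyte list, had no count in any of the 5 libraries. In bulk RNA, fewer cells of a type and less RNA per cell cannot be told apart.

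The level of the introduced factor followed the label only in part. SRSF2 stood at 214, 396 and 310.3 CPM in SRSF2-OE replicates 1, 2 and 3, against 258 and 224 CPM in TRA2B-OE replicates 1-2 and replicate 3. The library labelled SRSF2-OE replicate 1 thus held less SRSF2 than either TRA2B-OE library, and the groups overlapped. That library lay above both Control libraries, at 204 and 176 CPM, and below both SRSF4-OE libraries, at 272 and 248 CPM. TRA2B stood at 201 and 147 CPM in TRA2B-OE and at 140.2, 132 and 129 CPM in SRSF2-OE, so both TRA2B-OE libraries lay above all 3 of SRSF2-OE. The library labelled TRA2B-OE replicate 3 exceeded the highest SRSF2-OE library by a small margin, and both SRSF4-OE libraries, at 158 and 168 CPM, exceeded it. The fitted log2 fold change (SRSF2-OE minus TRA2B-OE) was 0.46 ± 0.24 (SE) for SRSF2 and -0.30 ± 0.15 for TRA2B. In edgeR's quasi-likelihood test the unadjusted p was 0.084 for SRSF2 and 0.078 for TRA2B, and the p adjusted over all genes was 1.0 for both. Reads from the insert and from the endogenous gene cannot be told apart in these gene counts.

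**Figure D1:**
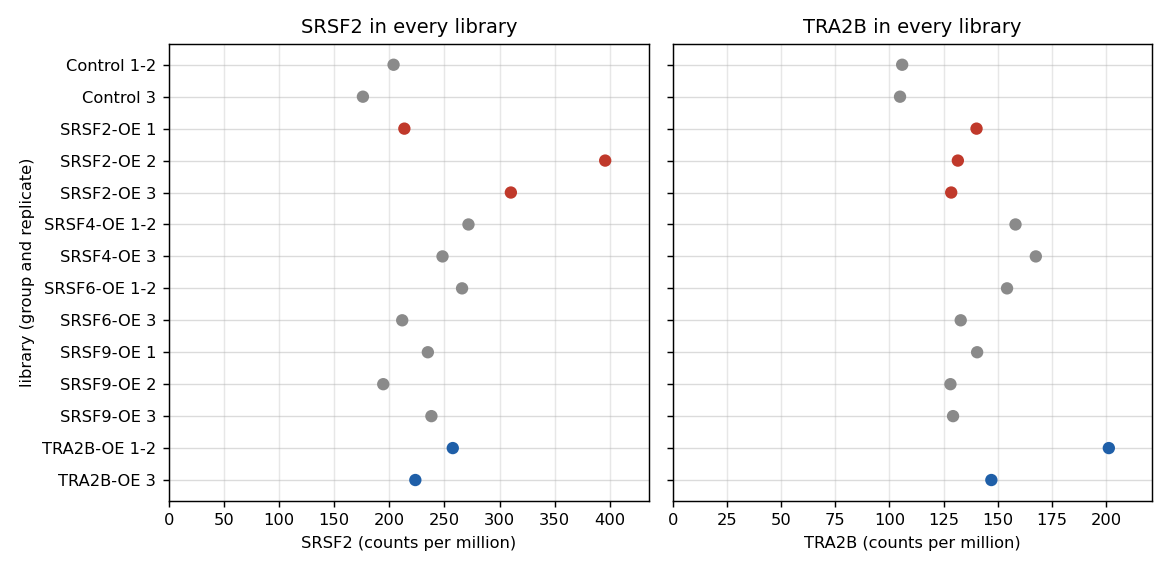
SRSF2 (left) and TRA2B (right) in CPM in each of the 14 libraries, one point per library, with SRSF2-OE in red, TRA2B-OE in blue and the other groups in grey. SRSF2-OE replicates 2 and 3 hold the highest SRSF2 values, 396 and 310.3 CPM, and TRA2B-OE replicates 1-2 the highest TRA2B value, 201 CPM, while SRSF2-OE replicate 1 and TRA2B-OE replicate 3 lie among the libraries of other labels.

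Of the 5 libraries, those with the weakest sign of their factor were also the pair most alike. Over 12800 genes with a mean of at least 3 CPM over the 14 libraries, the library of SRSF2-OE replicate 1 and that of TRA2B-OE replicate 3 differed by more than 2-fold in 142 genes, which is 1.11%. Over all 21326 genes tested, their log2 CPM values correlated with Pearson's r of 0.989 and Spearman's rho of 0.992 (a description, since genes are not independent replicates). No other pair among the 5 libraries came as near. SRSF2-OE replicates 1 and 3 differed by more than 2-fold in 336 genes (2.63%), SRSF2-OE replicates 1 and 2 in 1789 genes (13.98%), SRSF2-OE replicates 2 and 3 in 1733 genes (13.5%), and the 2 TRA2B-OE libraries in 1376 genes (10.8%). SRSF2-OE replicate 3 and TRA2B-OE replicate 3 differed in 594 genes (4.64%), fewer than 3 of the 4 pairs of the same label. Among all 14 libraries, SRSF2-OE replicate 1 and TRA2B-OE replicate 3 were each other's nearest neighbour. Such closeness across labels was not particular to this pair. Control replicate 3 and SRSF9-OE replicate 1 were closer still (r of 0.991, 0.75% of genes over 2-fold). SRSF4-OE replicates 1-2 and SRSF6-OE replicates 1-2 were nearly as close (r of 0.989, 1.49%). SRSF2-OE replicate 2 lay nearest to SRSF9-OE replicate 3 (r of 0.981), and TRA2B-OE replicates 1-2 nearest to SRSF6-OE replicates 1-2 (r of 0.984). Both libraries of each of these neighbour pairs, the close pair included, had the same label style (by number or by library ID). The 2 TRA2B-OE libraries differ in style, while all SRSF2-OE libraries are labelled by number. The part of label style in these distances was not tested.

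The close pair were still separate libraries. Raw counts were compared per gene by chi-square, where sampling noise alone gives a mean near 1 and a median below 1. The 2 lanes of the one TRA2B-OE library had a median of 1.13 and a mean of 3.82, so even they differed by more than sampling noise. SRSF2-OE replicate 1 against TRA2B-OE replicate 3 had a median of 2.31 and a mean of 31.5. Every other pair of samples from different libraries in the 2 groups had a median of 5.06 or more. The 10 named genes that differed most within the close pair were NLGN4X, RYR1, DCN, MSLN, BTF3P10, PLLP, FN1, TUB, MSLNL and JAM3. DCN, the matrix proteoglycan decorin, stood at 82.8 CPM in SRSF2-OE replicate 1 and 6.30 CPM in TRA2B-OE replicate 3. FN1, fibronectin, stood at 16.2 and 2.74 CPM, and reached 847 CPM in TRA2B-OE replicates 1-2. RYR1, a calcium release channel, stood at 5.83 and 0.394 CPM. Of these 10 genes only PLLP was lower in SRSF2-OE replicate 1 than in TRA2B-OE replicate 3. Both close libraries had the highest mitochondrial shares of their groups, and the part of RNA composition in their closeness was not tested.

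**Figure D2:**
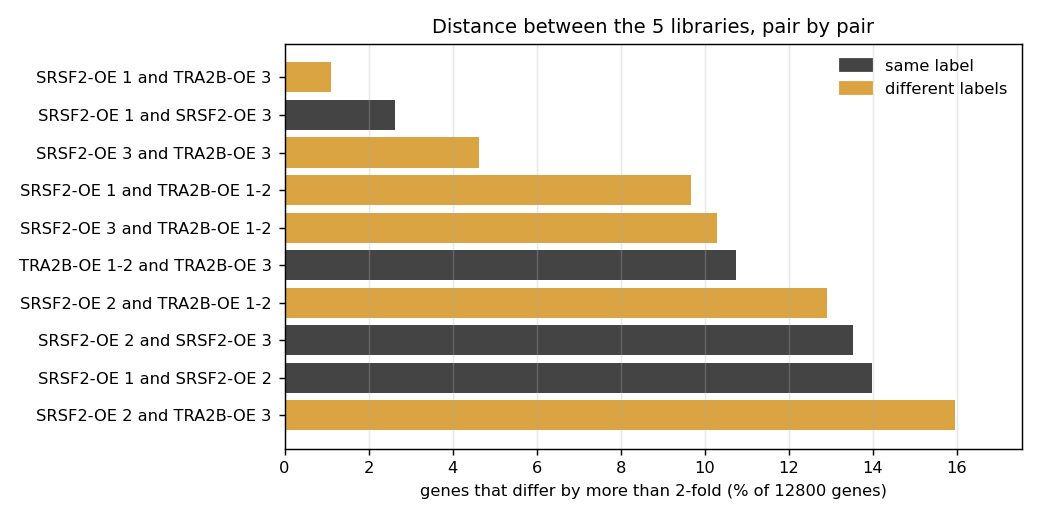
Share of 12800 genes that differ by more than 2-fold (horizontal axis, %) for each of the 10 pairs of the 5 libraries, with pairs of the same label in dark grey and pairs of different labels in yellow. The shortest bar, 1.11%, is that of the close pair, and the longest, 15.97%, joins SRSF2-OE replicate 2 and TRA2B-OE replicate 3.

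Across all genes, few differences exceeded the spread between libraries. Of 21326 genes tested, edgeR's quasi-likelihood test with Benjamini-Hochberg adjustment called 0 (0%) at an adjusted p under 0.05. The smallest adjusted p was 0.211, for PLLP, and 744 genes had an unadjusted p under 0.05, fewer than the 1066 that this level gives on average with no difference at all. limma-voom also called 0, with 906 genes at an unadjusted p under 0.05. DESeq2, on the same libraries and model, called 34 genes at an adjusted p under 0.05: 28 higher in SRSF2-OE (0.131%) and 6 lower (0.0281%). Of these 34 genes, 26 showed no overlap between the groups, and all 34 kept their direction in every alternative fit. They were called for their difference in these same libraries, so neither count is independent support. The calls themselves were less stable. DESeq2 called 34 of them again without SRSF2-OE replicate 1, 14 without replicate 2 and 7 without replicate 3. With only the 5 libraries compared it called 6 of them. Without regard to a test, all 3 SRSF2-OE libraries lay above both TRA2B-OE libraries in 1733 genes (8.13%) and below both in 1786 genes (8.37%). The median log2 fold change over all genes was 0.02.

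A feature of the fit bears on how a fold change reads beside the library values. SRSF2-OE has only libraries labelled by number, while TRA2B-OE has 1 library of each label style, and a term for the label style takes up the mean difference between styles in the groups that have both. A fitted fold change can therefore differ from the plain ratio of the means. The calls depended on single libraries. Leaving out one SRSF2-OE library changed the DESeq2 count from 34 to 300 (replicate 1), 23 (replicate 2) or 8 (replicate 3), and leaving out one TRA2B-OE library changed it to 78 (replicates 1-2) or 283 (replicate 3). Without both close libraries it was 302. The fits that leave a single TRA2B-OE library, including the call of PLLP without TRA2B-OE replicates 1-2 given below, assume that it varies like the other groups. In edgeR, 51 genes were called once the library labelled SRSF2-OE replicate 1 was dropped, 10 higher and 41 lower in SRSF2-OE. Without that library DESeq2 called 135 genes higher and 165 lower. The excess of higher genes in the main DESeq2 fit, 28 against 6, therefore depended on SRSF2-OE replicate 1.

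**Figure D3:**
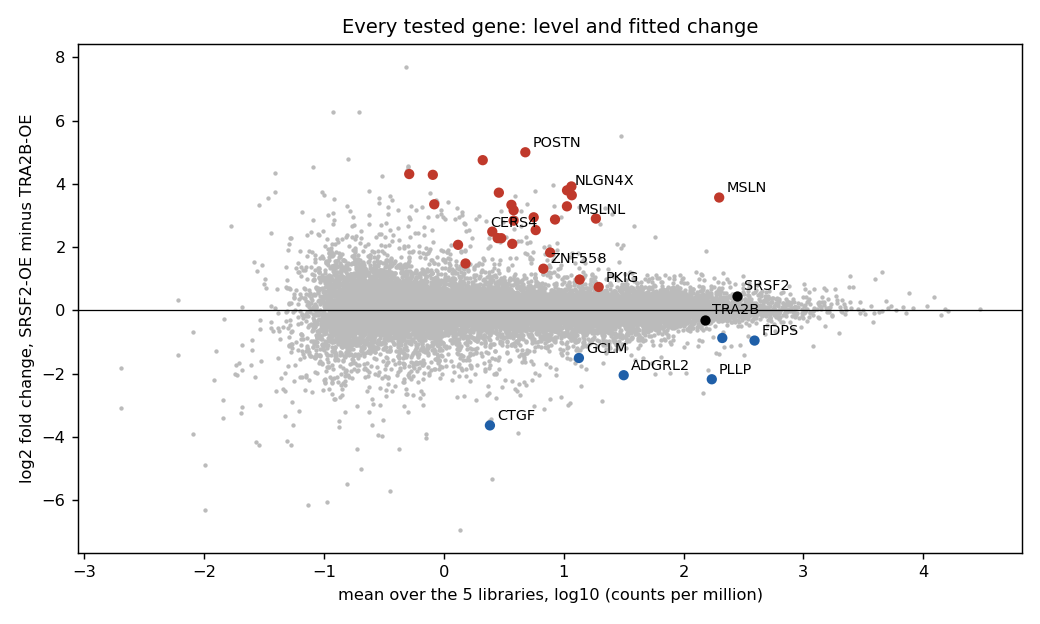
Fitted log2 fold change (vertical axis) against the mean level over the 5 libraries in log10 CPM (horizontal axis) for the 21326 genes tested, each a grey dot. Genes called by DESeq2 are in red where higher and in blue where lower in SRSF2-OE, and SRSF2 and TRA2B are in black. Most called genes are of low level and higher in SRSF2-OE, with MSLN and the called lower genes PLLP and FDPS at the abundant end.

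Of the 28 genes that DESeq2 called higher in SRSF2-OE, MSLN, MSLNL and POSTN had the smallest adjusted p. MSLN, which encodes mesothelin, a GPI-anchored surface protein of mesothelium and of several carcinomas, stood at 144, 357 and 408 CPM in SRSF2-OE against 70.4 and 13.1 CPM in TRA2B-OE. The groups did not overlap, although the library labelled SRSF2-OE replicate 1 lay well below the other 2 of its group. The fitted log2 fold change of MSLN was 3.57 ± 0.70 (SE), with a DESeq2 adjusted p of 8.4e-06. MSLNL, its neighbouring paralog, stood at 8.94, 14.2 and 25.6 CPM against 2.76 and 1.73 CPM. NLGN4X, a neuroligin that acts in cell adhesion at synapses, stood at 8.22, 18.3 and 22.4 CPM against 3.89 and 0.512 CPM. POSTN, the matricellular protein periostin, stood at 1.13, 14.4 and 7.47 CPM against 0.842 and 0.0985 CPM. In these genes, too, SRSF2-OE replicate 1 was the lowest of its group, and in MSLN, MSLNL, NLGN4X and POSTN the lowest value of all 5 belonged to TRA2B-OE replicate 3.

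In the other named higher genes SRSF2-OE replicate 1 was again the lowest library of its group. CERS4, a ceramide synthase, stood at 4.90, 18.7 and 15.3 CPM in SRSF2-OE against 1.67 and 1.75 CPM in TRA2B-OE, with a log2 fold change of 2.88 ± 0.62 and a DESeq2 adjusted p of 0.0013. ABI3BP, an extracellular matrix protein, stood at 4.44, 10.1 and 11.04 CPM against 1.04 and 1.52 CPM. PKIG, an inhibitor of protein kinase A, showed a smaller difference with tight groups, at 20.6, 26.4 and 23.1 CPM against 12.9 and 14.9 CPM. The zinc finger gene ZNF558 stood at 6.87, 10.2 and 8.14 CPM against 5.66 and 3.01 CPM. The remaining DESeq2 calls among the named higher genes were PCDHGA7, TMEM216, CCDC106, PCLO, ZNF506 and DTX3, with log2 fold changes from 1.83 to 3.34. In each of these 6 the lowest SRSF2-OE value belonged to replicate 1. This value came close to that of TRA2B-OE replicates 1-2 in TMEM216 (2.23 against 2.08 CPM). The gap was widest in PCLO, a presynaptic scaffold protein (5.004 against 3.53 CPM). PCDHGA7 shares its 3′ exons with the other genes of its protocadherin cluster, so its count is uncertain. SDC3, the heparan sulfate proteoglycan syndecan-3, was named by its edgeR p and was not called (123, 231 and 204 CPM against 76.8 and 83.4 CPM).

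The genes called lower in SRSF2-OE were fewer in the main DESeq2 fit, though not in the fit without SRSF2-OE replicate 1. PLLP, plasmolipin, a membrane protein of myelin and of the apical surface of epithelia, stood at 65.7, 95.3 and 66.4 CPM in SRSF2-OE and at 202 and 432 CPM in TRA2B-OE. The log2 fold change was -2.18 ± 0.27 (SE), with a DESeq2 adjusted p of 1.9e-07. PLLP had the smallest p of all genes in edgeR, where its adjusted p was 0.211. edgeR called it without SRSF2-OE replicate 1, without TRA2B-OE replicates 1-2, with no filter on low counts, and with the 18 samples as separate replicates, with or without a replicate block. FDPS, farnesyl diphosphate synthase of the mevalonate pathway, stood at 329.8, 284 and 310.1 CPM against 543 and 490.4 CPM, a log2 fold change of -0.95 ± 0.20 with a DESeq2 adjusted p of 0.015. RUSC1-AS1, an antisense RNA that overlaps FDPS, moved in parallel, at 179, 149 and 179 CPM against 279 and 267 CPM. The library kit marks strand but no source used here gives the strand setting of the counting, so their reads may not be separable. GCLM, the regulatory subunit of the enzyme that limits glutathione synthesis, stood at 9.45, 4.72 and 6.66 CPM against 32.3 and 13.9 CPM, with a log2 fold change of -1.504 ± 0.37. ADGRL2, the adhesion receptor latrophilin 2, stood at 25.4, 11.9 and 11.4 CPM against 29.7 and 80.1 CPM. CTGF, the matricellular factor also named CCN2, was called lower by DESeq2 but was near zero in all libraries except TRA2B-OE replicates 1-2 (10.9 CPM, against at most 0.532 CPM in the other 4).

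The other named lower genes passed neither test. CCT3, a subunit of the chaperonin TRiC, stood at 465, 546 and 445 CPM in SRSF2-OE and at 722 and 706 CPM in TRA2B-OE, with a log2 fold change of -0.66 ± 0.17. GPATCH4 stood at 54.9, 55.4 and 53.9 CPM against 87.8 and 83.3 CPM. DAP3, a mitochondrial ribosomal protein, stood at 131, 152 and 123 CPM against 162 and 208 CPM, and PMVK, phosphomevalonate kinase of the same pathway as FDPS, at 43.1, 40.6 and 44.5 CPM against 54.7 and 63.9 CPM. LBR, SAP30, GNB4, CCDC126, DEPDC1 and CCSAP completed the 15, with log2 fold changes from -0.61 to -0.98. None of these genes overlapped between the groups, which was a condition of their naming.

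**Figure D4:**
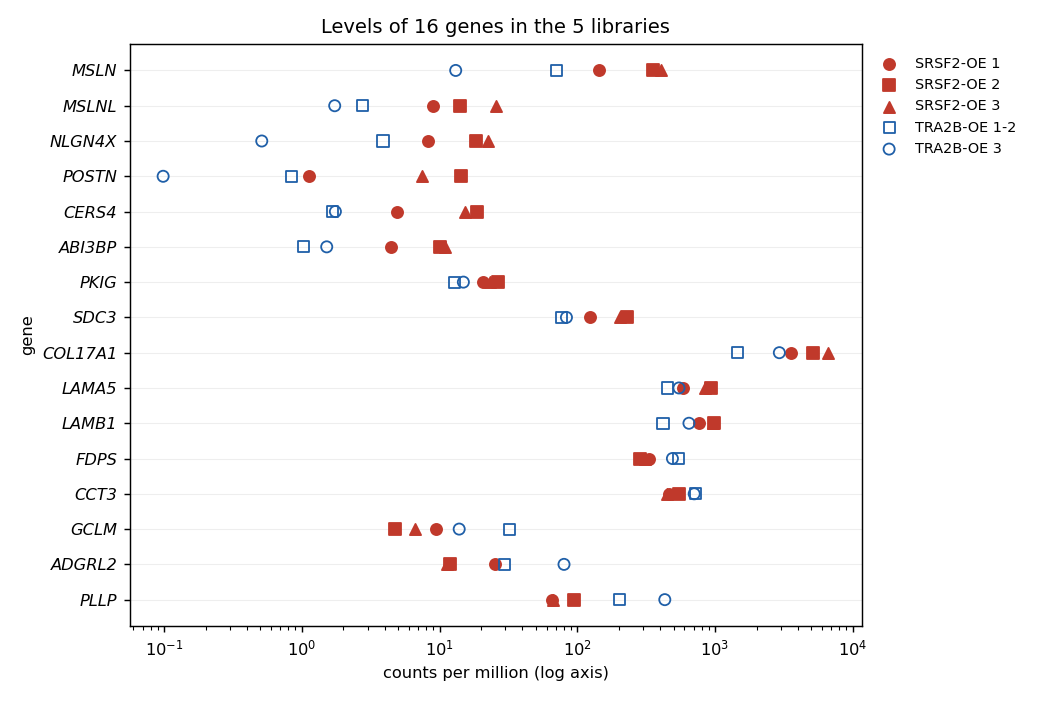
Levels of 16 genes (rows) in CPM on a log axis, with SRSF2-OE libraries as filled red symbols and TRA2B-OE libraries as open blue symbols. The genes shown were taken from those without overlap between the groups, so the separation follows from that choice. Over all genes tested, 8.13% lay above and 8.37% below in this way. In each row the red symbols lie on one side of the blue ones, by margins that differ from gene to gene (LAMA5, 587 against 547 CPM; PLLP, at most 95.3 against at least 202 CPM; MSLNL, at least 8.94 against at most 2.76 CPM).

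The DNA before the start of 4 of these genes is shown as an example from each group of results: PLLP with the smallest p, FDPS and GCLM as the called members of the cholesterol and NRF2 lists, and LAMA5, which was not called, from the basement-membrane list. Each run is the 250 bases before the RefSeq start in build GRCh38.p14, written 5′ to 3′ on the strand of the gene: chr16:57284673-57284922, minus strand, for PLLP; chr1:155308616-155308865, plus strand, for FDPS; chr1:93909431-93909680, minus strand, for GCLM; and chr20:62367313-62367562, minus strand, for LAMA5. Capitals mark matches, on either strand, to the CCAAT box (CCAAT), the GC box (GGGCGG), the TATA box (TATAAA), the E-box (CACGTG), the AP-1 site (TGANTCA), the core of the antioxidant response element (TGACNNNGC) or the sterol regulatory element (TCACNCCAC).
PLLP: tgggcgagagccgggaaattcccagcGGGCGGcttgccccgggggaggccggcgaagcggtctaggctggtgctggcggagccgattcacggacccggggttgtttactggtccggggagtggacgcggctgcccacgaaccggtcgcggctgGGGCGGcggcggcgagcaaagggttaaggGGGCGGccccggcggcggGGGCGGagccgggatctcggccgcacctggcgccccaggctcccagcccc
FDPS: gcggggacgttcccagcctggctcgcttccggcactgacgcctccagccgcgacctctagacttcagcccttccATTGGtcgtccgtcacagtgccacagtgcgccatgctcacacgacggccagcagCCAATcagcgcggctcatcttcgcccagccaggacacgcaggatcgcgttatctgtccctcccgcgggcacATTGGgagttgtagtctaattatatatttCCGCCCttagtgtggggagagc
GCLM: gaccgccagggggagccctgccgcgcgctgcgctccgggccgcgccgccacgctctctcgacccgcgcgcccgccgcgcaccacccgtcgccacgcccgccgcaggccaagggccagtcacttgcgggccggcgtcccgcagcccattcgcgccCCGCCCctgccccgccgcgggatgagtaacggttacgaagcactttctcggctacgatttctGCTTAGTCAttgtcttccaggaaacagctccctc
LAMA5: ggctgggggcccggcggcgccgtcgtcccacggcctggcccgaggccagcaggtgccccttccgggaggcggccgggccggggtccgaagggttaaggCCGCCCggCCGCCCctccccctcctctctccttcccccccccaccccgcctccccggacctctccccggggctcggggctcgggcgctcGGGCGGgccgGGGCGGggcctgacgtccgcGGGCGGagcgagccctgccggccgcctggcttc
PLLP holds 4 GC boxes and LAMA5 holds 5, a motif found in 42.6% of the 35116 RefSeq windows of this length. FDPS holds 3 CCAAT boxes, a motif found in 32.0% of the windows, and 1 GC box. GCLM holds 1 GC box and 1 antioxidant response element core, found in 10.9% of the windows, 34 bases before the start. The TATA box (10.7% of the windows), E-box (6.34%), AP-1 site (6.57%) and sterol regulatory element (0.883%) had no match in these 4 windows. A match is a description of the letters and was not set against any binding data.

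The SR genes other than the 2 introduced ones differed little. Of 13 SR and SR-like genes tested, 6 had a log2 fold change above 0 and 7 below, with a median of -0.02, beside 0.02 over all genes, and neither edgeR nor DESeq2 called one. SRSF3, which also acts in mRNA export, stood at 189.6, 186 and 211 CPM in SRSF2-OE and at 245 and 214 CPM in TRA2B-OE. SRSF6 stood at 307, 297 and 412 CPM against 343 and 286 CPM. TRA2A, the closest relative of TRA2B, stood at 77.2, 40.3 and 77.9 CPM against 63.6 and 80.0 CPM, so SRSF2-OE replicate 2 was the only library set apart. SRSF12 was low, at 0.563, 0.555 and 0.540 CPM against 1.27 and 0.729 CPM. The kinases that phosphorylate SR proteins had a median of 0.00 over 10 genes (5 above and 5 below 0). CLK1, whose own splicing is under feedback control, stood at 112, 104 and 136 CPM against 90.8 and 111 CPM.

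Among 39 hnRNPs and other splicing regulators, 11 lay above and 28 below 0, with a median of -0.10, and none was called by edgeR or DESeq2. MBNL1, a regulator of developmental splicing, stood at 111, 98.8 and 93.5 CPM in SRSF2-OE against 122 and 137 CPM, and PTBP3, a paralog of the repressor PTBP1, at 93.0, 94.5 and 77.4 CPM against 124 and 110.3 CPM. ESRP1, the epithelial splicing regulator, had the widest range. It stood at 100.2, 12.1 and 19.3 CPM in SRSF2-OE against 52.6 and 141 CPM in TRA2B-OE, so the 2 close libraries held the most. The nuclear speckle and paraspeckle list had a median of 0.02 over 24 genes, and its member CCNL2, cyclin L2, stood at 399.9, 493 and 521 CPM against 360.4 and 379.5 CPM. The nonsense-mediated decay list had a median of 0.01 over 19 genes, 10 above and 9 below 0. SMG6, the endonuclease of that pathway, stood at 37.5, 36.3 and 35.5 CPM against 32.0 and 32.0 CPM, and NBAS at 38.9, 41.0 and 34.8 CPM against 38.5 and 46.3 CPM.

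Among lists with 10 or more genes tested, the mitosis list had the median farthest from 0, and its size moved with single libraries while its direction did not. All 32 genes of the mitosis list had a log2 fold change below 0, with a median of -0.92, and neither test called one. The mean log2 CPM of the list was 5.84, 3.79 and 5.20 in SRSF2-OE replicates 1, 2 and 3 and 5.30 and 6.19 in TRA2B-OE replicates 1-2 and replicate 3. SRSF2-OE replicate 2 was low, the 2 close libraries were the highest, and the groups overlapped. PLK1, the mitotic kinase, stood at 74.0, 19.7 and 36.8 CPM against 43.9 and 97.6 CPM. CENPE, KIF23 and CCNB2, a kinetochore motor, a midbody motor and a mitotic cyclin, had log2 fold changes of -1.01, -0.90 and -1.07, and for CENPE the unadjusted edgeR p was 0.10. Without SRSF2-OE replicate 2 the median of the list was -0.53, and without SRSF2-OE replicate 1 it was -1.42. The DNA replication list had 2 genes above and 33 below 0, with a median of -0.35 that became -0.09 without SRSF2-OE replicate 2. RRM2, a subunit of ribonucleotide reductase, stood at 71.8, 18.4 and 83.2 CPM against 79.9 and 88.1 CPM. RFC3, a subunit of the clamp loader, did not overlap, at 14.1, 7.62 and 13.97 CPM against 21.4 and 18.5 CPM.

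Basement-membrane genes tended the other way. Of 20 laminin and basement-membrane genes tested, 18 had a log2 fold change above 0, with a median of 0.43, and 7 lay higher in all SRSF2-OE libraries than in both TRA2B-OE libraries, but neither test called one. Over all genes tested, 52.03% had a log2 fold change above 0 and 8.13% lay higher in this way. COL17A1, the hemidesmosomal collagen, stood at 3533, 5172 and 6651 CPM in SRSF2-OE and at 1460.5 and 2929 CPM in TRA2B-OE. LAMB1 stood at 769, 989 and 960.1 CPM against 419 and 646 CPM, and LAMA5 at 587, 932 and 843 CPM against 453 and 547 CPM. NID2, a nidogen that links laminin to collagen IV, was one of the 2 genes below 0 (0.382, 0.427 and 0.405 CPM against 1.18 and 0.630 CPM). The median of the list was 0.23 without SRSF2-OE replicate 2 and 0.65 without SRSF2-OE replicate 1. The integrins had a median of 0.03 over 14 genes. ITGB4, the partner of laminin in hemidesmosomes, stood at 1681, 6378 and 1899.7 CPM against 1564 and 1574 CPM, so its difference came from SRSF2-OE replicate 2. The interstitial matrix list had 10 genes above and 10 below 0. DESeq2 called POSTN higher and CTGF lower, beside 0.131% called higher and 0.0281% called lower over all genes tested. TGFBI, an abundant matrix protein induced by TGF-beta, stood at 9256, 7990.2 and 9839 CPM against 3899 and 7419.9 CPM. LOXL2, a lysyl oxidase, reached 212 CPM in SRSF2-OE replicate 2 and lay between 6.76 and 35.2 CPM in the other 4 libraries.

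The cholesterol and NRF2 lists each held 1 gene called lower by DESeq2, beside 0.0281% called lower over all genes tested. Of 21 genes of cholesterol synthesis and uptake, 3 lay above and 18 below 0 with a median of -0.24, and FDPS was called. LSS, lanosterol synthase, was among those above 0, at 174, 187 and 201 CPM in SRSF2-OE against 189 and 131 CPM. The median of this list was -0.87 without TRA2B-OE replicate 3 and 0.07 without TRA2B-OE replicates 1-2. Of 24 NRF2 targets, 5 lay above and 19 below 0 with a median of -0.34, and GCLM was called. TXNRD1, thioredoxin reductase, stood at 40.7, 29.8 and 51.1 CPM against 140.3 and 47.8 CPM, and GPX2, a glutathione peroxidase, was under 2 CPM in every library. The NRF2 median was 0.00 without TRA2B-OE replicates 1-2 and -0.77 without TRA2B-OE replicate 3. The glycolysis and hypoxia list had 21 of 31 genes above 0 and a median of 0.16, which turned to -0.12 without SRSF2-OE replicate 2 and to -0.13 without TRA2B-OE replicate 3. Its member CA12, a carbonic anhydrase, stood at 879.98, 1784 and 1178 CPM against 514 and 724 CPM, and CA9, the hypoxia marker, at 2.39, 51.1 and 2.95 CPM against 0.396 and 0.552 CPM.

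The chemokine, cornified envelope and EGF lists had medians that turned with the TRA2B-OE library left out. The chemokine and interleukin list had a mean log2 CPM of 3.01 in TRA2B-OE replicates 1-2 and 0.35 in TRA2B-OE replicate 3, and 0.84 to 1.5002 in SRSF2-OE. Its median log2 fold change was -0.55 over 24 genes, -1.59 without TRA2B-OE replicate 3 and 0.98 without TRA2B-OE replicates 1-2. LIF stood at 2.55, 1.34 and 0.967 CPM against 9.26 and 2.80 CPM. The cornified envelope and kallikrein list had a median of -0.68 over 36 genes, -2.29 without TRA2B-OE replicate 3 and 1.32 without TRA2B-OE replicates 1-2. TGM1, the transglutaminase that cross-links the cornified envelope, stood at 63.3, 65.7 and 104 CPM against 28.1 and 31.9 CPM. The EGF receptor family and its ligands had 4 genes above and 10 below 0, with a median of -0.48 that was 0.09 without TRA2B-OE replicates 1-2. ERBB3 stood at 18.8, 11.7 and 14.9 CPM against 18.2 and 23.4 CPM. Of 40 interferon-stimulated genes, 16 lay above and 24 below 0 with a median of -0.08, which was 0.096 without TRA2B-OE replicate 3. PARP9, a member of that list, stood at 18.2, 13.3 and 13.9 CPM against 21.4 and 21.1 CPM. Neither test called a gene of these 4 lists.

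The keratins differed gene by gene. KRT14, the basal keratin, stood at 5176, 5689 and 7422 CPM in SRSF2-OE and at 3082 and 1433 CPM in TRA2B-OE, without overlap. KRT15 stood at 1702, 363 and 395 CPM against 356 and 3208 CPM, with the 2 close libraries high and the other 3 low. The basal and stress keratin list had 3 genes above and 7 below 0 and a median of -0.19, which was 0.67 without TRA2B-OE replicates 1-2. The 16 markers of mammary epithelium had a median of 0.04, which was -0.34 without TRA2B-OE replicate 3. No gene of either list was called by edgeR or DESeq2. EPCAM stood at 1.25, 1.07 and 0.540 CPM against 3.45 and 1.34 CPM. The remaining 24 lists that are not cell type markers had medians between -0.29 and 0.16. In all, 901 of the 1006 listed genes were tested, edgeR called 0 of them and DESeq2 called 5, with POSTN and MSLN higher and GCLM, FDPS and CTGF lower, beside 0.131% called higher and 0.0281% called lower over all genes tested.

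Position in the genome showed a pattern that the gene lists did not. Genes with a mean of at least 3 CPM over the 5 libraries were grouped by chromosome after the named genes had been seen, as a description with no test. The 355 genes of chromosome 20 had a median log2 fold change of 0.37, while the medians of the other 22 chromosomes with at least 100 such genes (X included) lay between -0.11 and 0.12. On chromosome 20, 89.6% of the genes had a fold change above 0, against 49.4% over all chromosomes. All 3 SRSF2-OE libraries lay above both TRA2B-OE libraries in 28.7% of its genes, against 8.13% of all these genes, and below both in 0.563%, against 9.10%. Cutting each chromosome into runs of 50 neighbouring genes gave 240 runs. The 7 runs of chromosome 20 had medians of 0.25 to 0.48 and held the 7 highest ranks of the 240, and no run of another chromosome exceeded 0.21.

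The shift of chromosome 20 separated libraries within both groups. Relative to the median of the 14 libraries, its genes had a median log2 deviation of -0.14, 0.41 and 0.22 in SRSF2-OE replicates 1, 2 and 3, and of -0.05 and -0.29 in TRA2B-OE replicates 1-2 and replicate 3. SRSF2-OE replicates 2 and 3 were thus high, SRSF2-OE replicate 1 was on the side of TRA2B-OE, and TRA2B-OE replicate 3 was the lowest of the 14. Of the genes named above, PKIG, LAMA5, RBM39 and SRSF6 lie on this chromosome. DNA copy number was not measured in the files used here, and its part in the fold changes of these genes was not tested. RBM39, a splicing factor related to U2AF, stood at 353, 453 and 587 CPM in SRSF2-OE against 431 and 335 CPM in TRA2B-OE. The median of the chromosome was 0.22 without SRSF2-OE replicate 2 and 0.53 without SRSF2-OE replicate 1, the lowest and the highest among the alternatives run.

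The named lower genes lay mostly on chromosome 1. Of the 15, 11 lie there, against 1 of the 15 named higher genes and 10.5% of all genes grouped. Of the named higher genes, 4 lie on chromosome 19, which holds 6.89% of all genes grouped. The run from DENND4B to GON4L and the next one, from RIT1 to DCAF8, had the 2 lowest medians of the 240, -0.21 and -0.19. PMVK, FDPS, RUSC1-AS1, DAP3, CCT3 and GPATCH4, 6 of the 15, fall within these 2 runs. The first of these runs had a median log2 deviation of 0.54 in TRA2B-OE replicate 3 and -0.01 in TRA2B-OE replicates 1-2, and of 0.14, 0.17 and 0.04 in SRSF2-OE, so as a whole it was set apart in TRA2B-OE replicate 3. In the second run the deviation was highest in SRSF2-OE replicate 2, at 0.30, above TRA2B-OE replicate 3 at 0.25 and TRA2B-OE replicates 1-2 at 0.063. Since the genes were named for their difference, these counts only describe where they lie.

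**Figure D5:**
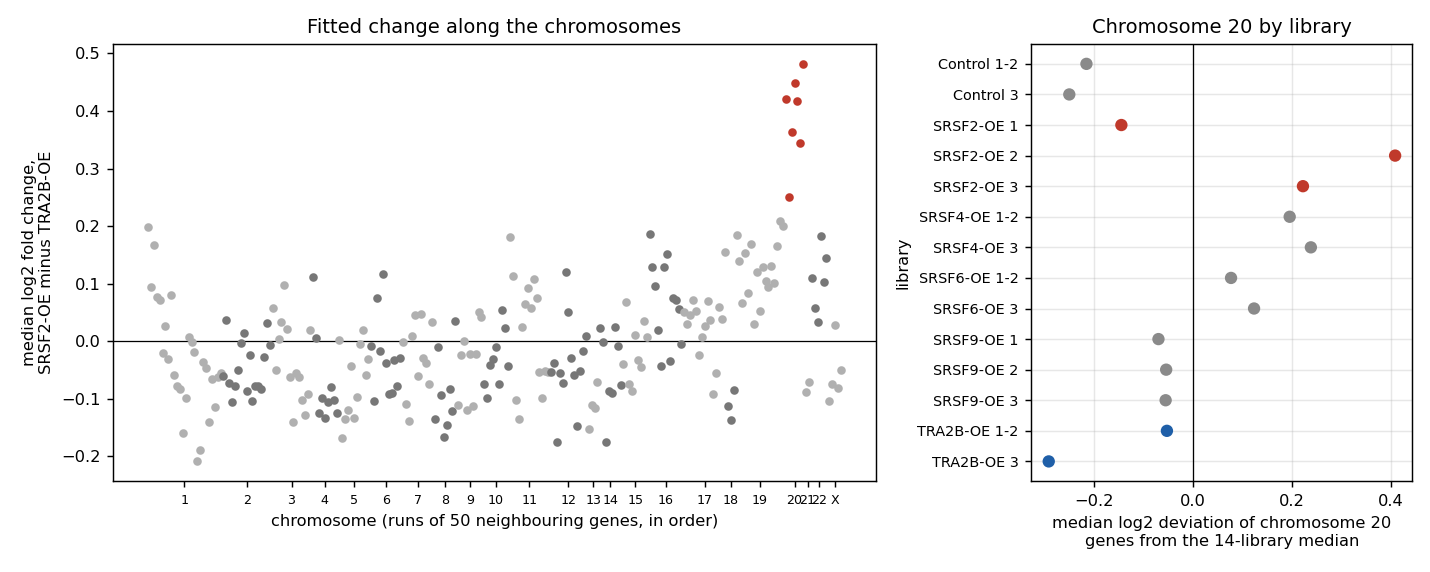
Left, the median log2 fold change of each of 240 runs of 50 neighbouring genes in chromosome order, with chromosome 20 in red and the others in alternating grey. Right, the median log2 deviation of chromosome 20 genes from the 14-library median in each library, with SRSF2-OE in red and TRA2B-OE in blue. The 7 runs of chromosome 20 lie between 0.25 and 0.48, above every other run, and the library values range from -0.29 in TRA2B-OE replicate 3 to 0.41 in SRSF2-OE replicate 2.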

How the data were processed

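Gene counts of 18 RNA-seq samples were used, of which 6 are compared. Per the labels' protocols, RNA from the 3D structures went into stranded mRNA libraries read as pairs of 101 bases. Per the submitters' processing notes, Trimmomatic 0.36, STAR 2.5.1b, featureCounts of Subread and build GRCh37 were used. The deposited values are the authors' raw counts per gene; strand setting and gene annotation are not given in the sources used here. Of 60252 IDs, 55951 were named by GENCODE 29, and the unnamed rest held 0.152% to 0.193% of the counts.

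Lanes of one library were summed (14 libraries). Genes passing edgeR's filter at a minimum count of 10 were scaled by TMM and fitted in edgeR 4.0.16 (R 4.3.3) with group and label style as terms, 7 residual degrees of freedom and a common biological coefficient of variation of 0.318. CPM values use the same scaling. DESeq2 1.42.0 and limma-voom 3.58.1 served as alternatives, as did other filters, scalings, terms and sets of libraries. All p-values were adjusted by the Benjamini-Hochberg method, in edgeR and limma-voom over all genes tested. DESeq2 adjusted over the genes left by its own filters and gave no adjusted p for 2495 genes. The shares of DESeq2 calls are nonetheless given over all 21326 genes tested. The scripts were tested on simulated data.

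Genes were named by rule: the SR genes, up to 15 genes per direction without overlap between the groups and with a mean of at least 3 CPM (called genes first, then those with the smallest edgeR p), up to 4 per list with the smallest p, and the 10 that differed most within the close pair. CTGF was named as a DESeq2 call in a list. Of these, those that serve the description are printed. The members, lists and named groups were chosen with earlier results of these data known, and the grouping by chromosome was added after seeing the values. Chromosomes and gene order come from GENCODE 29, whose build differs from that of the files, so no position of a counted gene is printed; promoter sequences are from RefSeq.

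Replicate numbers do not pair samples here: deviations from the group means correlated at -0.40, 0.38 and 0.21 for replicates 1, 2 and 3, and replicates 1 and 2 of TRA2B-OE are lanes of one library.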

Additional observations from a re-analysis of the deposited data

How the results depend on the processing

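The log2 fold changes of SRSF2 (0.24 to 0.69) and TRA2B (-0.57 to -0.13) kept their direction, and neither gene was called in any of these fits. Of 2025 refits of the other named genes, 1972 kept their direction and side of the threshold, 40 passed it (21 of them in DESeq2) and 13 changed sign. The number of genes called was 0 in the main edgeR fit, 34 in DESeq2, 1 with no filter on low counts (PLLP), 1 with 18 separate samples (PLLP), 28 with 18 separate samples and a replicate block, and 1 without both close libraries (FUCA2, chosen after its value was seen). Replicate numbers do not pair these samples. Leaving out each of the 14 libraries in turn gave 0 to 51 in edgeR. In DESeq2 only the 5 compared libraries were left out in turn, which gave 8 to 300. The DESeq2 count, in alternatives chosen after seeing the data, was 302 without both close libraries, 12 with only the 5 libraries, 18 with no label style term and 62 with only numeric labels; the fits without either TRA2B-OE library, without both close libraries and with only numeric labels leave 1 TRA2B-OE library, assumed to vary like the others.

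Without both close libraries the list medians were 0.15 for SR kinases, -0.85 for cholesterol synthesis, -1.48 for chemokines, -1.82 for the cornified envelope, 0.64 for laminins, -0.75 for NRF2 targets and -0.32 for fibroblast markers. With only numeric labels they were 0.10 for cholesterol synthesis, 1.17 for chemokines, 0.69 for basal keratins, 1.35 for the cornified envelope, 0.61 for integrins, 0.48 for interstitial matrix, 0.12 for the EGF family and 0.030 for NRF2 targets. With the replicate block they were -1.30 for chemokines, 0.43 for basal keratins, 0.43 for mammary epithelium markers and -0.76 for fibroblast markers. Fibroblast markers had -0.49 with only the 5 libraries and -0.80 with no label style term, and basal keratins 0.37 with no label style term. Leaving out each library gave -0.058 to 0.25 for SR kinases, -0.040 to 0.10 for nonsense-mediated decay, -0.87 to 0.075 for cholesterol synthesis, -1.59 to 0.98 for chemokines, -0.37 to 0.67 for basal keratins, -2.29 to 1.32 for the cornified envelope, 0.23 to 0.65 for laminins, -0.59 to 0.58 for integrins, -0.075 to 0.45 for interstitial matrix, -0.58 to 0.091 for the EGF family, -0.77 to 0.0045 for NRF2 targets and -0.20 to 2.24 for fibroblast markers.

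DCN turned to -0.49 with only the 5 libraries, -0.48 with no label style term and -0.26 with the replicate block. FN1 turned to 0.66 in limma-voom and 4.27 with only numeric labels, and TRA2A to 0.067 with 18 separate samples and 0.37 without both close libraries. KRT15 turned to 0.97 without both close libraries. Leaving out each library gave -0.31 to 0.51 for TRA2A, -2.24 to 2.09 for KRT15, -0.14 to 1.07 for ITGB4 and -2.94 to 4.24 for FN1. The cause of each change was not tested. Which part of the low number of calls depth sets was not tested.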

Other observations

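The 9 libraries of the other groups give these values a wider frame. PLLP lay between 73.6 and 109.6 CPM in those 9 libraries, within or just above the 65.7 to 95.3 CPM of SRSF2-OE, while both TRA2B-OE libraries (202 and 432 CPM) lay above all 12 others. The same held for FDPS (106 to 378 CPM in the 9 libraries, 490.4 and 543 CPM in TRA2B-OE) and for CCT3 (290.2 to 576 CPM, against 706 and 722 CPM). In all, 8 of the 15 named lower genes were highest in both TRA2B-OE libraries: PLLP, SAP30 and the 6 genes within the 2 lowest runs of chromosome 1. Over 12780 genes with a mean of at least 3 CPM over the 5 libraries, 110 were highest and 93 lowest in both TRA2B-OE libraries. The named lower genes were chosen with both TRA2B-OE libraries above all SRSF2-OE libraries. Their count therefore cannot be set against that share, and it only describes where the other 9 libraries lie.

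MSLN lay between 57.1 and 181 CPM in the other 9 libraries, so SRSF2-OE replicates 2 and 3 (357 and 408 CPM) were the highest of the 14, SRSF2-OE replicate 1 (144 CPM) was within the range of the rest, and TRA2B-OE replicate 3 (13.1 CPM) was the lowest of the 14. MSLNL (1.77 to 7.52 CPM in the other 9) and PKIG (14.2 to 19.5 CPM) were the 2 named higher genes with all 3 SRSF2-OE libraries above the other 11. CERS4 (4.33 to 11.5 CPM in the other 9), DTX3 and SDC3 were the 3 with both TRA2B-OE libraries below the other 12. POSTN reached 15.9 CPM in the other 9 libraries, above every SRSF2-OE library. Over the same 12780 genes, 117 were highest and 211 lowest in all 3 SRSF2-OE libraries. The named higher genes were likewise chosen with all SRSF2-OE libraries above both TRA2B-OE libraries, so their counts cannot be set against these shares.

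Chromosome 20 genes also deviated in Control and SRSF4-OE, and less so in SRSF6-OE and SRSF9-OE. Their median log2 deviation was -0.22 and -0.25 in the 2 Control libraries and 0.20 and 0.24 in the 2 SRSF4-OE libraries. It was 0.077 and 0.12 in the 2 SRSF6-OE libraries, and -0.070 to -0.054 in the 3 SRSF9-OE libraries. Shifts of a whole chromosome were not particular to chromosome 20. In SRSF6-OE replicates 1-2 and replicate 3 the genes of chromosome 13 had median log2 deviations of 0.30 and 0.54.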
